A study of Homo sapiens with 17 samples.

Results

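The T>C counts that arise without thiouridine were examined in the human cell line SNU-761, an established line of liver carcinoma cells that the labels call wild type. The libraries were chosen by their labels and number 7 of the 17 in the series. They are the unlabelled library of the VT107 experiment, the unlabelled library of the intetumumab experiment, 2 labelled DMSO libraries and 3 labelled libraries given an isotype IgG1 at 5 µg/ml. DMSO is the vehicle control for VT107, a pan-TEAD inhibitor, and the isotype is the control for intetumumab, an antibody against integrins with the ITGAV chain; neither agent was given in these 7 libraries. The control cells were collected 4 h after treatment, and the unlabelled cells are listed with no treatment. The labels give no dose or duration for thiouridine. The unlabelled cells are listed with neither thiouridine nor DMSO or isotype. What the label adds and what DMSO or the isotype adds therefore cannot be told apart here.

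In SLAM-seq, living cells take up thiouridine and build it into the RNA they make. Iodoacetamide then alkylates the thiouridine in the extracted RNA, and reverse transcription reads the altered base as C. A read with T>C conversions is counted as new RNA, so a library from cells that never saw the label shows how many such reads are counted in its absence, and in which genes.

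The table gives raw T>C counts for 19867 Ensembl gene IDs. It holds no gene names, and the gene table used here pairs 0 genes with an Ensembl ID, so genes appear by ID, at most 2 for each direction of a comparison, or by rank. For the same reason the liver and other cell type markers and the 15 gene lists prepared for these libraries could not be looked up. Nothing in the labels says that the control replicates came from separate cultures, so the spread between them may be technical.

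Without thiouridine, T>C counts were few and were found in fewer genes than with it. The unlabelled library held 10702 counts in the VT107 experiment, against 1001568 and 1103024 counts in the DMSO libraries, which is 1.02% of their mean (1052296 ± 71740 counts, SD, n = 2). In the intetumumab experiment it held 4553 counts, against 753142, 751380 and 950281 counts with the isotype, which is 0.556% of their mean (818268 ± 114330 counts, SD, n = 3). The number of all reads sequenced per library is not given in the sources used here, so totals were not set per read sequenced. Each unlabelled library stands alone in its experiment, and its values have no replicate check.

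Counts were found for 2337 genes in the unlabelled library of the VT107 experiment, where a DMSO library thinned to the same 10702 counts would be expected to show 4100.5 and 4148.4 genes. The unlabelled library of the intetumumab experiment showed 1034 genes, where isotype libraries thinned to 4553 counts would show between 2544.7 and 2555.1. These expected numbers treat each count as an independent draw. Counts that arise in groups would also give fewer genes, which was not tested. The 10 genes with the most counts were also taken, separately in each library. In the VT107 experiment they held 13.1% of the unlabelled library, against 6.68% and 7.18% of the DMSO libraries. In the intetumumab experiment they held 27.7% of the unlabelled library, against 4.86% to 5.10% of the isotype libraries. These shares were not thinned to equal totals. A library with fewer counts can show a larger share in its own leading genes by sampling alone, which was not tested.

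The unlabelled libraries had 452 genes in common, which is 19.3% of the genes counted in the VT107 experiment and 43.7% of those counted in the intetumumab experiment. These 452 genes held 38.0% and 65.4% of the unlabelled counts. Among better counted genes the overlap was larger for the shorter list. At least 10 unlabelled counts were reached by 214 genes in the VT107 experiment and by 60 in the intetumumab experiment, and 35 genes were in both, which is 16.4% and 58.3% of the lists. Of the 60 genes, 48 had at least 1 unlabelled count in the VT107 experiment.

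The same 3 genes led both unlabelled libraries, in the same order. ENSG00000105281 was first in each, with 388 unlabelled counts against 408 and 380 in DMSO, and with 396 unlabelled counts against 584, 776 and 976 with the isotype. This is 3.63% of the unlabelled T>C counts in the VT107 experiment (95% exact binomial interval 3.28% to 4.00%), against 0.0407% and 0.0345% of the DMSO libraries. Beside the isotype the share was 8.70% (7.89% to 9.55%) of the unlabelled library, against 0.0775%, 0.103% and 0.103% with the isotype. In raw counts the unlabelled library thus lay between the DMSO libraries, while as a share it was 96.4 and 92.0 times the mean of the controls. In the 4 libraries treated with VT107 this gene had 584 to 1566 counts, and in the 6 treated with intetumumab 440 to 836. These intervals cover counting error only, since reads copied from 1 molecule are not independent.

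ENSG00000156482 was second in each, with 280 unlabelled counts against 504 and 608 in DMSO, and with 373 unlabelled counts against 1020, 919 and 1146 with the isotype. Its share was 2.62% (2.32% to 2.94%) of the unlabelled library, against 0.0503% and 0.0551% in DMSO. It was 8.19% (7.41% to 9.03%) of the unlabelled library, against 0.135%, 0.122% and 0.121% with the isotype. Both unlabelled shares lay far above all 5 control shares, which stayed within a range of 0.0503% to 0.135%. The third gene in each had 216 unlabelled counts against 1176 and 1273 in DMSO, and 99 unlabelled counts against 418, 483 and 544 with the isotype. Its shares without the label were alike in the experiments, at 2.02% and 2.17%. Below these genes the order differed. The gene at rank 4 in the unlabelled library of the VT107 experiment was at rank 103 in that of the intetumumab experiment. The gene at rank 4 in the intetumumab experiment was at rank 16 in the VT107 experiment.

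**Figure D1:**
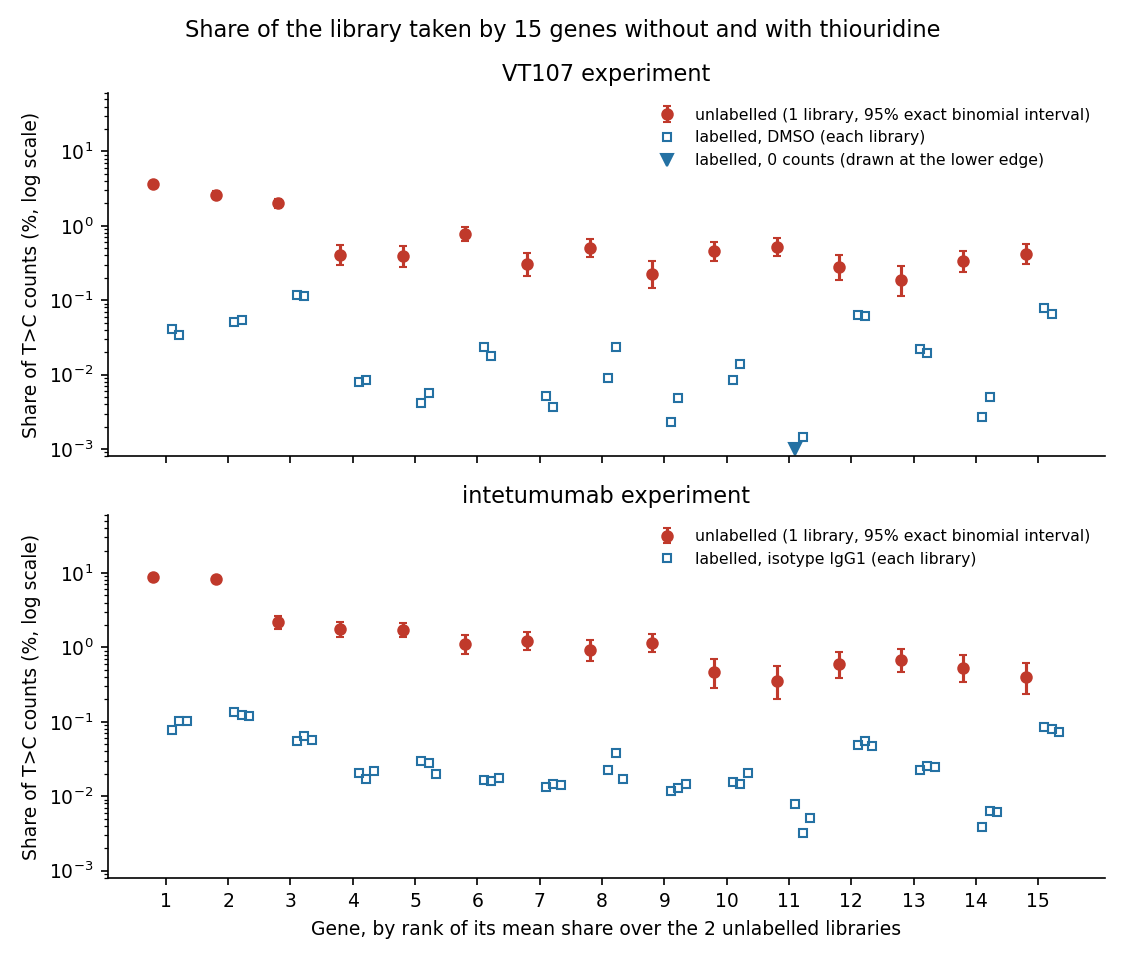
Share of all T>C counts of a library (percent, log scale) for the 15 genes with the highest mean share over both unlabelled libraries, among genes with at least 10 counts in each. Red points are the single unlabelled library of each experiment with its 95% exact binomial interval, and open blue squares are the labelled control libraries, 1 square each; a triangle at the lower edge marks a control with 0 counts. For all 15 genes the unlabelled point lies above every control of its experiment, from 3.63% and 8.70% at rank 1 to 0.420% and 0.395% at rank 15.

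Together the 15 leading genes held 13.1% of the unlabelled counts in the VT107 experiment, against a mean of 0.435% of the DMSO counts. They held 30.0% of the unlabelled counts in the intetumumab experiment, against 0.577% ± 0.0208 (SD, n = 3) of the isotype counts. The 15 genes were chosen for a high unlabelled share, which favours larger sums without the label. They were not the genes with the most labelled counts. By mean count in DMSO their ranks ran between 78 and 9370, with a median of 1297, and by mean count with the isotype between 61 and 4129, with a median of 814. Gene 5 had counts that were multiples of 3 in all 17 libraries, with 42 unlabelled counts against 42 and 63 in DMSO, and 78 unlabelled counts against 225, 213 and 186 with the isotype.

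The genes with the most labelled counts had few unlabelled ones relative to their labelled counts. Of the 20 genes with the highest mean in DMSO, 2 were also among the 20 leading unlabelled genes, and 1 had no unlabelled count. Set against the labelled mean of the same gene, the unlabelled count reached at most 1.15%, with a median of 0.489%. Of the 20 leading isotype genes, 1 was among the 20 leading unlabelled genes and 9 had no unlabelled count, with a maximum of 0.799% and a median of 0.0705%. The gene that led the DMSO libraries had 108 unlabelled counts, the fourth highest, against 26750 and 32643 in DMSO, which is 0.364% of their mean. The same gene had 6 unlabelled counts against 3948, 4319 and 5416 with the isotype, or 0.132% of their mean. Its share of the unlabelled library, 1.01% and 0.132%, was lower than in every control of the same experiment (2.67% and 2.96% in DMSO, 0.524% to 0.575% with the isotype).

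The level of background was next set against the labelled level of the gene. To keep the 2 measures apart, the genes of each experiment were placed in 5 equal bins by their mean count in the controls of the other experiment. In the VT107 experiment the unlabelled counts of a bin came to 1.71%, 1.35%, 1.17%, 1.07% and 0.948% of the mean DMSO counts from the lowest to the highest bin (exact Poisson intervals 1.46% to 1.99% in the lowest and 0.926% to 0.970% in the highest). Those of the intetumumab experiment came to 0.354%, 0.667%, 0.739%, 0.686% and 0.498% of the mean isotype counts (0.245% to 0.494% in the lowest bin and 0.480% to 0.516% in the highest). The lowest bin was thus the highest in the first experiment and the lowest in the second. It held 169 and 34 unlabelled counts. In both experiments the highest bin lay below the middle one. It held 67.5% of the unlabelled counts against 72.5% of the control counts in the VT107 experiment, and 62.6% against 70.0% in the intetumumab experiment. The highest bin included the genes at rank 1, 2 and 3 of the unlabelled share. They gave 396, 373 and 99 of its 2849 unlabelled counts in the intetumumab experiment. In the VT107 experiment they gave 388, 280 and 216 of 7228. The order of the bins without these genes was not tested.

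**Figure D2:**
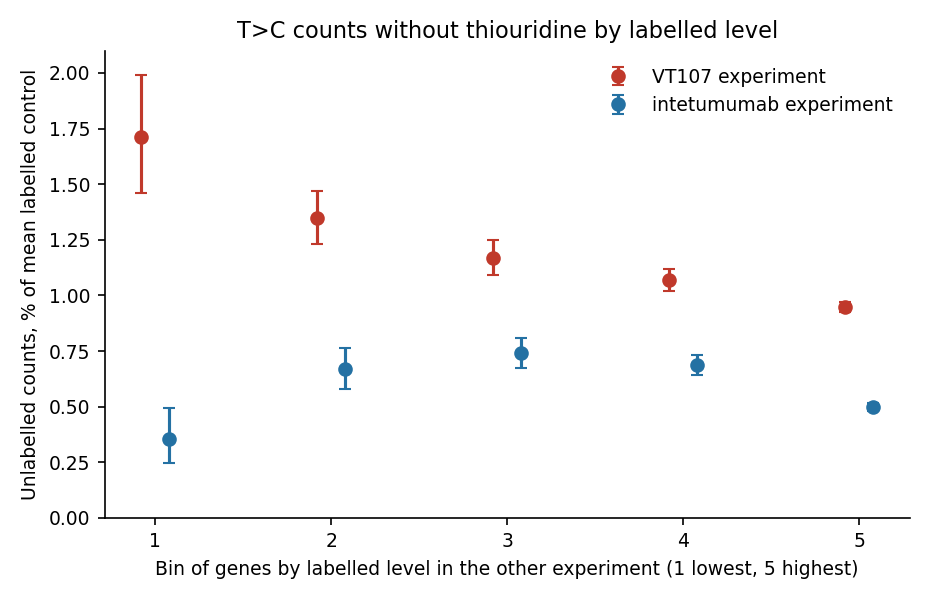
Unlabelled counts as a percent of the mean count of the labelled controls, summed over genes in 5 equal bins by the labelled mean in the controls of the other experiment. Points are sums over 2440 to 2521 genes in 1 unlabelled library and bars are exact Poisson intervals, which cover counting error only. The VT107 experiment runs from 1.71% in the lowest bin to 0.948% in the highest, and the intetumumab experiment from 0.354% through 0.739% in the middle to 0.498%.

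Shares with and without the label were compared across genes in 1 fit of the 7 libraries with edgeR's quasi-likelihood F-test (two-sided), with the library total as the scale and a term for the experiment. Each experiment has 1 unlabelled library, so the spread behind the SE and adjusted p comes mostly from the labelled controls. These values do not measure how well the background of a gene repeats. Of 9088 genes tested, 6307 (69.4%) had no count in either unlabelled library. The threshold was an adjusted p of 0.05 (Benjamini-Hochberg over all genes tested), at which 86 genes (0.946%) had a higher share without thiouridine and 12 genes (0.132%) a lower one. Scaling by TMM, which moved the log2 differences of the 450 tested genes counted in both unlabelled libraries by a median of -1.78, called 61 genes (0.671%) higher and 1149 (12.6%) lower, so that 5.04% of its calls were higher ones, against 87.8% with the library total. With DESeq2, 99 genes (1.09%) were higher and 2070 (22.8%) lower.

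The 86 genes with a higher share rose between 4.85- and 205-fold, with a median of 24.8-fold (log2 difference 4.63). ENSG00000105281 rose 94.0-fold (log2 difference 6.56, SE 0.17, edgeR adjusted p = 1.61e-08) and ENSG00000156482 rose 57.5-fold (log2 difference 5.85, SE 0.16, edgeR adjusted p = 1.61e-08). The 15 leading genes were all among those called, which restates that they were chosen for a high unlabelled share. Gene 15 was not called with TMM (log2 difference 0.65, adjusted p = 0.156 by edgeR) or with DESeq2 (log2 difference 0.61, adjusted p = 0.0647), against 2.45 with the library total. Both unlabelled shares lay above all 5 control shares for 71 of the 86 genes, a placement found for 247 genes (2.72%) of all tested. The other 15 genes had no count in 1 unlabelled library, 11 of them in the intetumumab experiment and 4 in the VT107 experiment, so their calls rest on the other library alone. The 86 genes held 22.9% of the unlabelled counts against 1.03% of the DMSO counts. In the intetumumab experiment they held 41.8% of the unlabelled counts against 1.18% of the isotype counts. These genes were called in the same libraries, so the direction of the rises and of these sums was fixed by the choice. Without the unlabelled library of the VT107 experiment 45 of the 86 genes were still called, and without that of the intetumumab experiment 57.

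**Figure D3:**
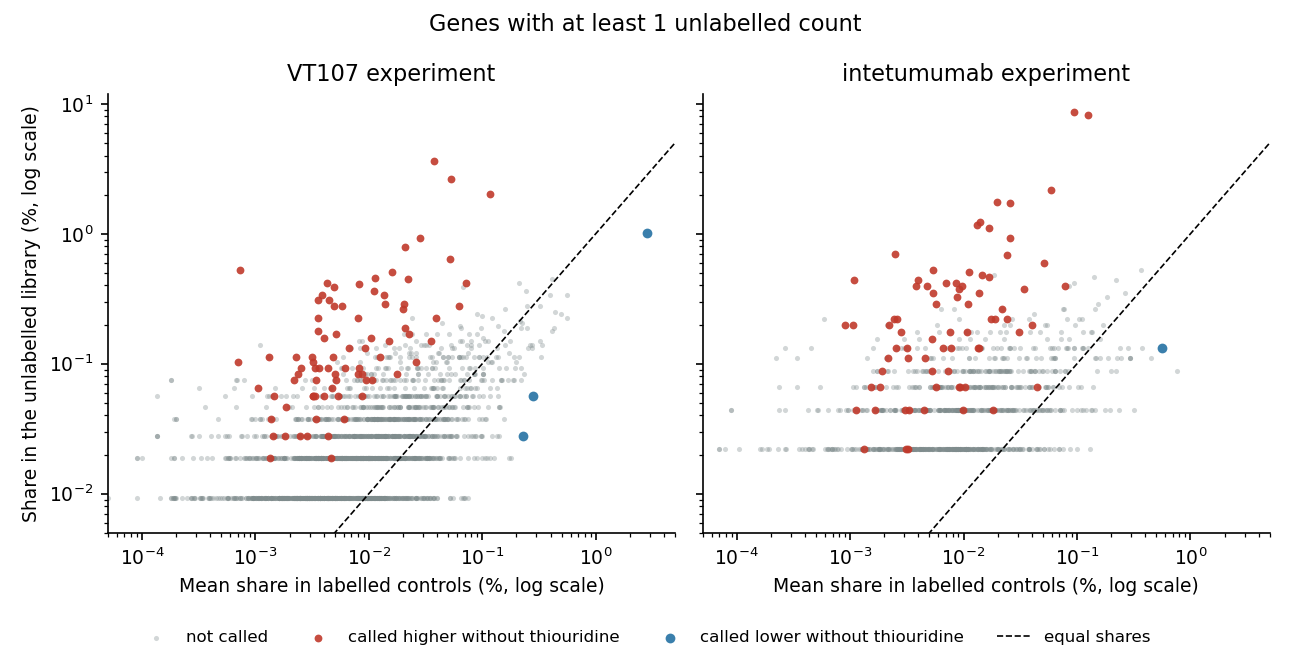
Share of each gene in the unlabelled library against its mean share in the labelled controls (percent, both axes on a log scale), 1 point for each gene with at least 1 unlabelled count and at least 1 control count. Red points are the genes called higher without thiouridine (86 in all) and blue points those called lower (12 in all); a gene with no unlabelled count in an experiment is not drawn there, and the dashed line marks equal shares. Every red point drawn (82 in the VT107 panel, 75 in the intetumumab panel) lies above the line, and the 3 highest are the same genes in both panels.

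The 12 genes with a lower share had mean counts between 680 and 29696 in DMSO and between 575 and 5296 with the isotype. At these unlabelled totals a gene needs a high labelled share to be called lower, so the level of these genes is set by what could be detected. Together they had 117 unlabelled counts (1.09%) against 4.47% of the DMSO counts, and 6 unlabelled counts (0.132%) against 2.92% of the isotype counts. The direction of these sums was likewise fixed by the choice of genes. ENSG00000101040 had no unlabelled count in either experiment, against 2416 and 3399 counts in DMSO and 2442, 1852 and 2509 with the isotype. Set against 3 counts over both unlabelled libraries together (0.0197%), its share was at least 14.1-fold lower without the label (edgeR adjusted p = 0.00392). ENSG00000198561, also with no unlabelled count, had 1599 and 2157 counts in DMSO and 2466, 3024 and 3052 with the isotype, and its share was at least 14.3-fold lower (edgeR adjusted p = 0.00414). In all, 9 of the 12 genes had no count in either unlabelled library. The gene that led the DMSO libraries fell by 1.61 on the log2 scale (SE 0.21, edgeR adjusted p = 0.00431). That call was lost without the experiment term (adjusted p = 0.6), against all 15 labelled libraries (0.334) and without isotype replicate 3 (0.0533), and over all alternatives the adjusted p ran from 1.83e-22 to 0.6. Both unlabelled shares lay below all 5 control shares for 11 of the 12 genes and for 6164 (67.8%) of all genes tested, most of which had no unlabelled count. Of the 12 calls, 7 remained without DMSO replicate 1 and 6 without replicate 2. Without isotype replicates 1, 2 and 3 in turn 4, 5 and 2 remained, and without the unlabelled library of the VT107 experiment 6.

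The second measure was the raw unlabelled count of a gene as a ratio to its mean count in the labelled controls beside it, not scaled by depth and, with 1 unlabelled library, not tested. Where at least 10 unlabelled counts were present, the median ratio was 4.20% over 214 genes in the VT107 experiment and 15.3% over 60 genes in the intetumumab experiment. The unlabelled count reached 1/3 of the control mean in 26 of the 214 genes (12.1%) and in 18 of the 60 genes (30.0%). The values nearest to this level were 0.333 and 0.330 in the VT107 experiment, and 0.335 and 0.273 in the intetumumab experiment. The control means of these genes had a median of 41.8 counts in DMSO (highest 556) and 44.3 with the isotype (highest 1028). Because the unlabelled libraries held 10702 and 4553 counts, a minimum of 10 was a stricter cut in the smaller library. The medians and percentages of the lists of 214 and 60 genes are therefore not compared with each other. Over the 35 genes that reached 10 unlabelled counts in each library, the median ratio was 0.252 beside DMSO and 0.206 beside the isotype.

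The genes chosen in 1 experiment were then read in the other, whose libraries had no part in the choice. Of the 26 genes of the VT107 experiment, 12 had a ratio of at least 1/3 in the intetumumab experiment and 8 had no unlabelled count there. For 2 of the 26 the isotype libraries held no count, and the median ratio of 0.307 leaves these out. Of the 18 genes of the intetumumab experiment, 12 had at least 1/3 in the VT107 experiment and 5 had no unlabelled count there, with a median of 0.502. The 12 genes in both lists are 46.2% and 66.7% of them, and 34.3% of the 35 genes with at least 10 unlabelled counts in each experiment.

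For these 12 genes the ratio lay between 0.364 and 7.0 in the VT107 experiment (median 0.572) and between 0.335 and 0.581 in the intetumumab experiment (median 0.489). It was higher in the VT107 experiment in 10 of the 12. The ratio is not scaled, and the unlabelled total was 1.02% of the control mean there, against 0.556% in the intetumumab experiment. Higher raw ratios in the VT107 experiment are thus expected from the totals alone and do not single out these genes. With unlabelled totals near 1% of the controls, a ratio at this level fixes a higher share without the label, so their shares are not read further. For ENSG00000105281 the ratio was 0.985 (exact Poisson interval 0.889 to 1.09) in the VT107 experiment and 0.509 (0.460 to 0.561) in the intetumumab experiment. For ENSG00000156482 it was 0.504 (0.446 to 0.566) and 0.363 (0.327 to 0.401). The gene at rank 4 of the unlabelled share had closer values, 0.512 and 0.490, with 44 unlabelled counts against 79 and 93 in DMSO and 80 unlabelled counts against 155, 126 and 209 with the isotype.

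Over all 35 genes with at least 10 unlabelled counts in each experiment, the ratio ran from 0.00527 to 7.0 in the VT107 experiment and from 0.00799 to 0.581 in the intetumumab experiment. Across these genes Spearman's rho between the experiments was 0.908 for the ratio, 0.585 for the unlabelled share and 0.884 for the labelled control mean that the ratio is divided by. The likeness of the ratios therefore cannot be told apart from that of the labelled means. These are descriptions across 35 genes, which are not independent replicates. The ratio was higher in the VT107 experiment for 23 of the 35. There the unlabelled total was also the larger percentage of the controls, at 1.02% against 0.556%.

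**Figure D4:**
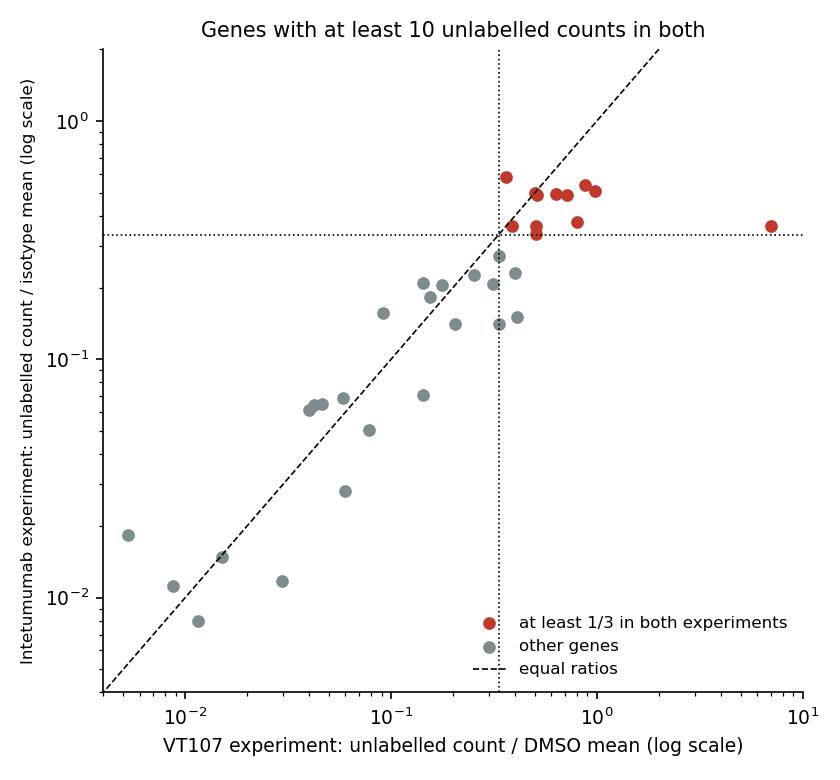
Unlabelled count over the mean labelled control count for the VT107 experiment (x axis) and the intetumumab experiment (y axis), both on log scales, for the 35 genes with at least 10 unlabelled counts in each. Dotted lines mark 1/3, the dashed line marks equal ratios, and red points are the 12 genes at or above 1/3 in both. The points run from 0.00527 and 0.00799 upwards, and 1 point lies far to its right at 7.0 and 0.364.

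A few genes with at least 10 unlabelled counts were counted more often without the label than in the mean control. In the VT107 experiment there were 4 such genes, of which 1 had no count in any control. With fewer unlabelled counts included, 22 genes with 68 unlabelled counts in all had no DMSO count, and 1 gene with 5 had no isotype count. Among the genes with at least 10, the largest finite ratio was that of ENSG00000163631, with 56 unlabelled counts against 0 and 16 in DMSO, a ratio of 7.0 (5.29 to 9.09, for the unlabelled count alone, with the control mean taken as exact). Without DMSO replicate 1 the ratio was 3.5, and without replicate 2 no DMSO count was left. In the intetumumab experiment it had 16 unlabelled counts against 60, 24 and 48 with the isotype, a ratio of 0.364 (0.208 to 0.591). Its share was higher without the label (log2 difference 7.68, SE 0.86, edgeR adjusted p = 0.00131), the largest rise of the 86. That fit joins both experiments, and its DMSO side held only the 0 and 16 counts. Without the unlabelled library of the VT107 experiment the log2 difference was 6.02 and the call was lost. Without that of the intetumumab experiment the log2 difference was 9.41. Another 3 genes with at least 10 unlabelled counts exceeded their mean control in the intetumumab experiment, and all 3 had no unlabelled count in the VT107 experiment. ENSG00000141556 had 32 unlabelled counts against 23, 14 and 24 with the isotype, and 0 unlabelled counts against 54 and 48 in DMSO. ENSG00000186197 had 20 unlabelled counts against 5, 18 and 2 with the isotype, and 0 unlabelled counts against 14 and 10 in DMSO. No gene with at least 10 unlabelled counts exceeded its mean control in both experiments.

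Genes chosen by their labelled level alone show how widely background was counted. In DMSO 2349 genes had a mean of at least 100 counts, and these held 74.2% of the DMSO counts. Of them, 1256 (53.5%) had no unlabelled count, 675 (28.7%) had at least 1% of their labelled mean, 20 (0.851%) had at least 10% and 5 had at least 1/3. With the isotype 1872 genes reached a mean of 100. Of these, 1453 (77.6%) had no unlabelled count, 217 (11.6%) had at least 1%, 14 (0.748%) had at least 10% and 7 had at least 1/3. The genes at or above 10% held 0.509% of the DMSO counts and 0.483% of the isotype counts. Among the 1634 genes with a mean of at least 100 in both sets of controls, 15 reached 10% in the VT107 experiment, 10 in the intetumumab experiment, and 8 in both, or 53.3% and 80.0% of the lists. The unlabelled totals were 1.02% and 0.556% of the controls, so a gene with a mean near 100 can have no count at the average background. For such a gene 1 count makes 1%. No unlabelled count is thus no sign of absent background, and these percentages are not compared between the experiments.

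Many genes have counts that share a common divisor over all libraries, and the unlabelled libraries show this too. A divisor above 1 over the 15 labelled libraries was found for 1456 of 9757 genes examined (14.9%), those with counts in at least 8 labelled libraries and at least 20 counts in 1. Of these, 238 had unlabelled counts in the VT107 experiment, and the unlabelled count was a multiple of the labelled divisor in 237 of them and equal to it in 157. In the intetumumab experiment it was a multiple in 82 of 82 and equal in 67. A single such entry can therefore appear as several counts, up to 10 for the VT107 experiment and 8 for the intetumumab experiment. These genes held 12.1% of the unlabelled counts against 13.5% of the DMSO counts, and 8.32% of the unlabelled counts against 13.2% of the isotype counts. They include 10 of the 86 genes with a higher share and 2 of the 12 genes at or above 1/3 in both experiments. For such genes the counting intervals are too narrow.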

How the data were processed

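The deposited table holds unnormalized T>C counts for each gene. The authors took them from SLAM DUNK, a pipeline that counts converted reads, as the design text of the series states. Reads were placed on GRCh38, per the submitters' processing notes, and libraries were made from 3′ ends, per the labels' protocols. Not given in the sources used here are the pipeline's version, the annotation, the T>C conversions needed per read and any masking of variants. Column names gave each column's sample.

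Counts were scaled by the library total, filtered with filterByExpr (minimum count 10) and tested with edgeR 4.0.16 in R 4.3.3 (quasi-likelihood F-test) on 2 unlabelled and 5 control libraries with a term for the experiment. The script was tested on simulated data, in which the unlabelled libraries were given the spread of the labelled ones. This checks how the script runs and not the calls made here. Depth ranged from 4553 and 10702 counts without thiouridine to 1103024 with it. Alternatives were TMM, DESeq2 1.42.0, other filters and levels, no experiment term, all 15 labelled libraries, counts divided by their common divisor, and leaving out each library. Expected gene numbers at lower depth were computed exactly, with each count taken as an independent draw.

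Genes described individually were those leading the unlabelled share, those at or above 1/3 of the control mean in both experiments, those above the control mean, and the largest called changes. The libraries, lists and levels were chosen with earlier results of these data known. The gene lists were not run, because 0 IDs could be matched to a symbol.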

Additional observations from a re-analysis of the deposited data

Results flagged for a closer look

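In 13 of the 98 called genes the unlabelled share lay above every control of 1 experiment and below every control of the other, 9 of them above in the VT107 experiment and 4 above in the intetumumab experiment. All 13 had a count of 0 on the lower side, where their control share corresponds to at most 0.97 counts, so a 0 lies below the controls by construction and shows no lower share. The difference between the experiments was not tested, since each has 1 unlabelled library. ENSG00000141556 had 32 unlabelled counts in the intetumumab experiment and 0 in the VT107 experiment, and ENSG00000186197 had 20 and 0. Another gene, not called in the test across both experiments, had 10 unlabelled counts against 8, 3 and 3 with the isotype, and 0 unlabelled counts against 45 and 27 in DMSO.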

How the results depend on the processing

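No paired analysis was possible because the unlabelled libraries carry no replicate number and each experiment has 1 of them. The count of 86 higher genes was within 1.5 times of its value under TMM (61), DESeq2 (99), the filter of 3 unlabelled or 100 labelled counts (106), no experiment term (91) and division by the common divisor (85). It was 144 without a filter and 191 against all 15 labelled libraries, and 60 to 104 when 1 library was left out. Of the 86 genes, 30 were called under every setting run. The count of 12 lower genes was 1149 with TMM, 2070 with DESeq2, 38 without a filter, 28 with the filter of 3 unlabelled or 100 labelled counts, 111 against all 15 labelled libraries and 2 to 45 when 1 library was left out. A lone unlabelled library was then assumed to vary like the labelled ones.

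The counts of 26, 18 and 12 genes at or above 1/3 (VT107, intetumumab, both) were 54, 31 and 12 with a minimum of 5 unlabelled counts, and 15, 11 and 8 with a minimum of 20. At a level of 1/2 they were 18, 8 and 3. As shares of the library total, every gene with 10 unlabelled counts passed (214, 60 and 35), since the shares carry the difference between totals. Leaving out 1 control gave 26 to 28, 17 to 18 and 11 to 12. The unlabelled totals of 1.02% and 0.556% were 0.935% and 0.452% without the 3 genes of highest share, and 0.970% to 1.07% and 0.535% to 0.605% with 1 control left out.

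Of 210 refits of the 15 leading genes, 207 kept their call and direction, the others being gene 15 with TMM and DESeq2 and ENSG00000163631 without the unlabelled library of the VT107 experiment. For 4 genes the direction turned, with no call, without the unlabelled library that held their counts. Leaving out 1 library put the log2 difference between -8.22 and 8.14 for ENSG00000141556, -6.15 and 8.67 for ENSG00000186197, -7.73 and 8.52 for the other gene above its isotype mean, and -5.24 and 6.97 for a gene with 15 unlabelled counts in the VT107 experiment. A gene with no count in either unlabelled library is limited only to a share below 0.0197%, or 3 counts over both.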
